A study of Mus musculus with 6 samples.

Results

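The genes described here encode the subunits of Polycomb repressive complex 1 (PRC1), the MBT-domain proteins and the PR-DUB deubiquitinase. They are 33 of the 24594 entries of the count table, chosen by name from what is known of these complexes, with earlier results of these data known: 12 canonical PRC1 genes, 10 variant PRC1 genes, 5 MBT genes and 6 PR-DUB genes. Nuclear RNA was sequenced from NeuN-positive nuclei sorted from the cerebellum of mice aged 7 months and labelled as granule cells. The 3 control libraries (WT) had the genotype Ezh1(wt/wt);Neurod1-Cre and the 3 conditional knockout libraries (cKO) had Ezh1(cKO/cKO);Neurod1-Cre. Ezh1 encodes a catalytic subunit of PRC2, and the comparison asks what its loss in neurons that have stopped dividing does to gene expression. Both groups carry Neurod1-Cre, a recombinase that by its name is driven by Neurod1, a granule neuron gene, so the controls have Cre as well. Any other NeuN-positive neuron in the sort is part of the sample, whether or not Cre was active in it. Which Ezh1 exons were removed is not in the labels, nor is whether each library is a mouse of its own, so the p-values cover the spread among 6 libraries, which may be technical.

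PRC1 attaches a single ubiquitin to histone H2A (H2AK119ub1) through RING1 or RNF2, each paired with 1 PCGF protein. Canonical PRC1 also holds a CBX protein, which binds the H3K27me3 mark made by PRC2, and a PHC protein, which helps to compact chromatin. Variant PRC1 holds RYBP or YAF2 in place of CBX and is recruited by other partners. MBT-domain proteins bind methylated lysines on histones and act with PRC1 or with DNA-binding partners. PR-DUB, built from the deubiquitinase BAP1 and an ASXL protein, removes the ubiquitin that PRC1 adds.

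The libraries held between 6340236 and 8284768 counts. Ezh1, the targeted gene, was at 71.0, 75.7 and 83.3 CPM (the count scaled to a library of 1e+06 counts) in WT and at 52.5, 51.0 and 55.6 CPM in cKO, a log2 fold change of -0.53 (SE 0.10, edgeR adjusted p = 0.00672), and every cKO library lay below every WT library. Leaving out WT replicate 3 gave -0.47 with an edgeR adjusted p of 0.115, and leaving out cKO replicate 1 gave -0.53 with 0.0833, so the call was lost at a similar size of difference. In those fits 13 and 14 genes were called over the whole table. Replicate 1 of each genotype stood apart from the others in Xist, at 811 and 831 CPM against 1.39 to 4.46 CPM. Summed Y-linked genes were at 1.51 and 2.45 CPM there, against 123 to 148 CPM in the other libraries. Each genotype thus had 1 such library, and the main fit held no term for it. For replicates 2 and 3 alone, values are given below for Sfmbt2, Cbx8, Pcgf5 and Asxl3 and for some counts of genes. Of 12 granule cell markers all 12 were measured, and they added up to 5445 ± 68.8 CPM in the WT and 5608 ± 542 CPM in the cKO libraries (SD, n = 3 each).

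Sfmbt2, which encodes an MBT-domain protein, was higher in cKO nuclei by 3.27-fold, and it was the only one of the 33 genes that edgeR called between the genotypes at an adjusted p below 0.05. The other 32 genes, among them every catalytic and scaffold subunit of PRC1 and PR-DUB, were not called. Over all 13115 genes tested, 0.579% were called: 42 were higher in cKO (0.32%) and 34 lower (0.259%), or 69 and 32 when libraries were scaled by their size alone. All 33 members were tested. The 1 call was 3.03% of them, and a single gene is too few to read against that background. By limma-voom, which called 0.32% of all genes, Sfmbt2 was again the only member (log2 fold change 1.68, adjusted p = 0.0243). DESeq2 called 2.9% of the genes to which it gave an adjusted p (1.55% higher, 1.35% lower). It gave one to 18 members and called none of these, although 3 of the 33 had an unadjusted p below 0.05 there. Sfmbt2 was not among the 18, since DESeq2's independent filtering sets low genes aside, and its unadjusted DESeq2 p was 2.06e-06.

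Members with small differences were the rule. The median log2 fold change of the 33 genes was 0.00, against -0.01 over all tested genes, with 17 values above 0 and 16 below. Values above 0 were thus 51.5% of the members and 48.8% of all genes. The median size of the difference, whatever its sign, was 0.08 for the members and 0.15 for all genes, and 26 of the 33 differed by less than 0.2. The medians were not matched for level. Under 10 CPM, where intervals are wider, lay 4880 of the 13115 tested genes and 7 of the 33 members. The 95% interval lay within 2-fold for 31 members, where 81% of all tested genes had such an interval, and within 1.5-fold for 27. The exceptions to the first count were Sfmbt2 and Rybp, which are among the 7 members under 10 CPM. At that level 51.6% of all tested genes had an interval within 2-fold, against 97.6% to 99.4% at higher levels. With libraries scaled by size alone, 26 of the 33 genes kept the sign of their difference, so the sign of a value near 0 depends on the scaling.

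**Figure D1:**
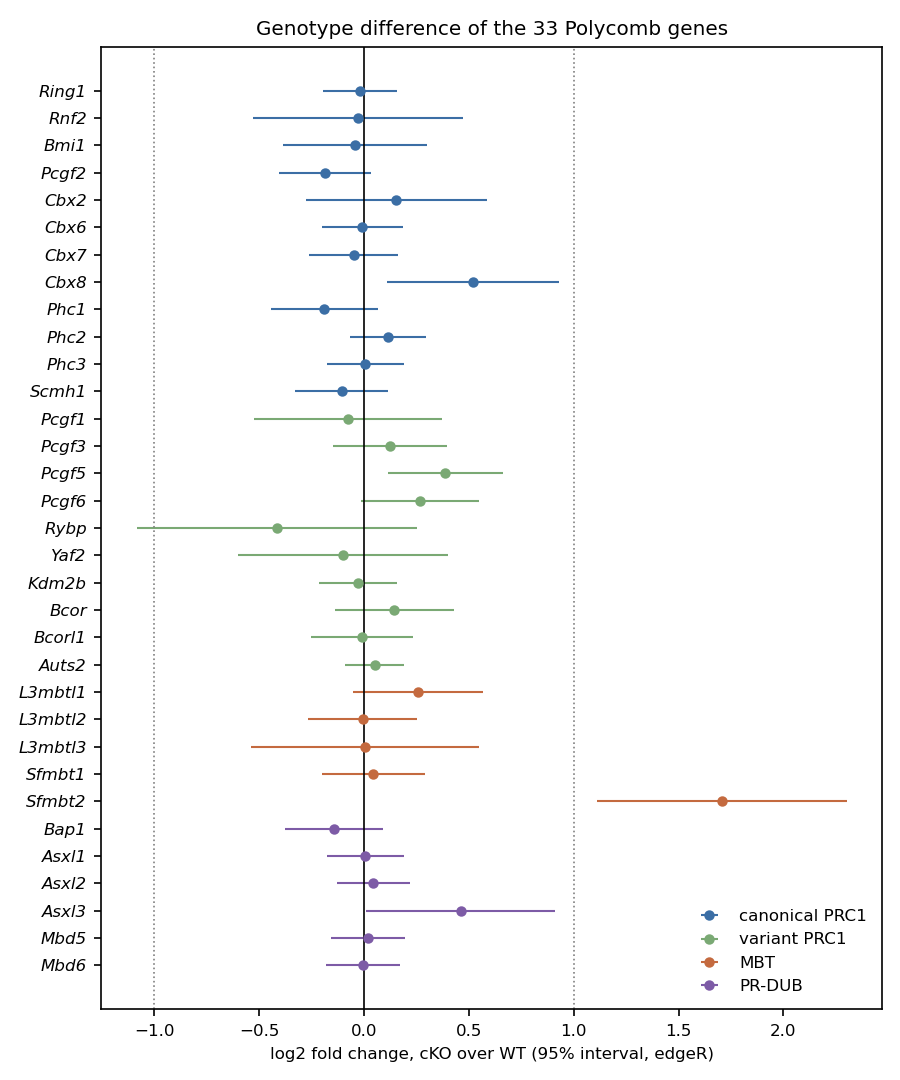
Log2 fold change (cKO over WT) of each of the 33 genes with its 95% interval from edgeR, grouped by complex. Sfmbt2 stands at 1.71 with an interval from 1.11 to 2.30, and the widest interval that reaches below -1 is that of Rybp.

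In 6 members every cKO library lay above every WT library: Cbx8, Pcgf5, Auts2, L3mbtl1, Sfmbt2 and Asxl3. In none did every cKO library lie below. These 6 are 18.2% of the members, against 16.3% of all tested genes that separated in either direction 7.88% that separated upwards and 8.39% downwards. An unadjusted p below 0.05 was found for 4 members (12.1%), Sfmbt2, Cbx8, Pcgf5 and Asxl3, and for 11.9% of all tested genes. The share with such a p was therefore close to the background. In replicates 2 and 3 alone the unadjusted edgeR p was 0.0429 for Cbx8, 0.0135 for Pcgf5 and 0.0850 for Asxl3.

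The first of the MBT genes, Sfmbt2, encodes a relative of the fly protein Sfmbt, and in placenta it is expressed from the paternal copy. The fly protein is brought to Polycomb target genes by a DNA-binding partner related to mammalian YY1. The mouse gene (NCBI gene 353282) lies on the plus strand at chr2:10370440-10595253 of GRCm38.p6. RefSeq lists 2 start sites for it. The 200 bases before each are shown because this is the member that rose, beside those of its paralog Sfmbt1, which did not pass the test. Sequences are from RefSeq, on GRCm38.p6, and capitals mark CG dinucleotides.
Sfmbt2 upstream start, chr2:10370251-10370450, plus strand: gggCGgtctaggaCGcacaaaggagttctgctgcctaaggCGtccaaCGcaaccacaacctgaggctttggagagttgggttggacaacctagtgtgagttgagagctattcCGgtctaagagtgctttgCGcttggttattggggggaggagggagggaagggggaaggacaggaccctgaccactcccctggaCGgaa
Sfmbt2 downstream start, chr2:10372236-10372435, plus strand: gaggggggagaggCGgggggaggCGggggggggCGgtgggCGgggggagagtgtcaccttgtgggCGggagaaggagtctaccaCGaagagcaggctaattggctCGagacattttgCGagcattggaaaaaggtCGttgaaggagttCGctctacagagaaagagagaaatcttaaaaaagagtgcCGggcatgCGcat
Sfmbt1, chr14:30714967-30715166, plus strand: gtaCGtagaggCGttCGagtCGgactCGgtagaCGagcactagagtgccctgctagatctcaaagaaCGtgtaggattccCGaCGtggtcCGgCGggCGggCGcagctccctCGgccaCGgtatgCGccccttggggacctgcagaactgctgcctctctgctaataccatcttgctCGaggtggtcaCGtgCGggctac

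The 2 Sfmbt2 stretches held 7 and 12 CG dinucleotides and the Sfmbt1 stretch held 19. The Sfmbt1 stretch lies inside its annotated gene, which begins at chr14:30714849, and so does the stretch of the downstream Sfmbt2 start. The stretches are therefore not all upstream of a whole gene, which limits a comparison of their CG counts. RefSeq promoter windows, from 250 bases before to 50 after a start, were at hand for 27 of the 33 members, 40 windows in all, and 9 of these genes had more than 1. Their median was 23 CG dinucleotides and 66.2% G or C, against 7 and 52.7% over the windows of all genes. The Sfmbt2 windows, with 9 and 16 CG dinucleotides, were below the member median but above that of all genes. Windows of members not called, such as Phc1 (9), Pcgf2 (10), Asxl1 (13) and Phc3 (15), were also below the member median. Those of Cbx8 (24), Rnf2 (30) and Ring1 (37) were above it. The letters CCATNTT, a core of the YY1 motif, were searched on both strands and found in 8 member windows (20%) and in 16.1% of all windows. They occurred in the Sfmbt1 window and in the window of the downstream Sfmbt2 start. A match of letters is not a site of binding.

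Raw Sfmbt2 counts were 19, 23 and 19 for WT, against 51, 57 and 73 for cKO. Scaled to depth, these were 2.87, 3.20 and 2.31 CPM in WT and 7.34, 8.80 and 11.2 CPM in cKO. The lowest cKO library was more than double the highest WT library, and the genotypes did not overlap. The means were 2.79 ± 0.45 and 9.13 ± 1.97 CPM (SD, n = 3 each), a log2 fold change of 1.71 (SE 0.29, 95% interval 1.11 to 2.30, edgeR adjusted p = 0.00310). Among the 76 genes called, only 2 had a higher log2 fold change, and Sfmbt2 ranked 12 of all tested genes by p. In these bulk libraries, more nuclei that transcribe Sfmbt2 and more Sfmbt2 RNA per nucleus cannot be told apart.

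The size of the Sfmbt2 difference was similar in every fit, while the call was lost in 1 fit that left out a library. Leaving out each library in turn gave log2 fold changes from 1.53 to 1.84. Without WT replicate 3 the value was 1.58, with an unadjusted edgeR p of 8.09e-05 and an adjusted p of 0.0542, above the threshold. Without cKO replicate 3 the unadjusted edgeR p was similar, 8.13e-05, and the adjusted p was 0.0312. These fits called 13 and 63 genes over the whole table, and the adjustment runs over all tested genes. Over all alternatives that gave one, the adjusted p ranged from 1.96e-05 to 0.0542. In replicates 2 and 3 alone, which leaves out the libraries high in Xist, the value was 1.87 (edgeR adjusted p = 0.0171).

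Even in cKO, Sfmbt2 was a low gene. Per kilobase of exon it stood at 0.306 ± 0.050 CPM in WT and 1.00 ± 0.22 CPM in cKO (SD, n = 3 each), where the median tested gene stood at 4.01 CPM. Sfmbt1, its paralog and the main SFMBT gene by level, was at 38.5, 37.6 and 38.8 CPM in WT and 35.4, 42.5 and 40.8 CPM in cKO. The genotypes overlapped there (log2 fold change 0.04, SE 0.12). Per kilobase of exon, Sfmbt2 made up 6.45% ± 1.08 of the pair in WT and 17.8% ± 2.47 in cKO (SD, n = 3 each).

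A cluster of miRNA entries lies within the Sfmbt2 gene, from chr2:10466663 to chr2:10518279, and none of the genes there shares exon sequence with Sfmbt2 in the GENCODE M21 annotation. Of its 43 entries, which were looked at after the Sfmbt2 values were seen, 14 had any count. Their summed counts were 1, 3 and 0 for WT, against 8, 6 and 4 for cKO. The sums do not overlap but rest on few reads, and many hairpins of this cluster are near-identical copies between which reads cannot be told apart.

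Markers of other cell types were set beside Sfmbt2. The 7 oligodendrocyte markers, of which edgeR called none (1 had an unadjusted p below 0.05), summed to 437, 374 and 248 CPM in WT and to 394, 311 and 682 CPM in cKO. Their sum was highest in cKO replicate 3, as was Sfmbt2, and lowest in WT replicate 3, where Sfmbt2 was lowest too. Between replicates 1 and 2 the order was reversed in both genotypes. There replicate 1 had the higher marker sum and replicate 2 the higher Sfmbt2 level. The marker sums of cKO replicates 1 and 2 lay within the WT range. Without cKO replicate 3, Sfmbt2 had a log2 fold change of 1.53 (edgeR adjusted p = 0.0312). The part of oligodendrocyte RNA in the Sfmbt2 difference was not tested.

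Markers of unipolar brush cells, another excitatory neuron of the cerebellum, summed to between 269.9 and 292 CPM in WT and between 269 and 307 CPM in cKO, and edgeR called none of the 3 tested of 5, with 1 unadjusted p below 0.05. Eomes, a transcription factor that defines these cells, was at 15.7, 6.13 and 8.98 CPM in WT and at 21.6, 18.7 and 21.1 CPM in cKO (log2 fold change 1.00, edgeR adjusted p = 0.0868). Its genotypes did not overlap. Of the granule markers, edgeR called Neurod1, the factor whose name the Cre driver carries, at a log2 fold change of 1.11 (SE 0.08, adjusted p = 8.03e-10). The part of either in the Sfmbt2 difference was not tested. Summed markers of Purkinje cells were at 507 CPM in WT and 466 CPM in cKO, inhibitory interneurons at 126 and 122, astrocytes with Bergmann glia at 128 and 132, microglia at 19.7 and 20.1, and vessels with meninges at 18.8 and 14.7. In these lists edgeR called no marker, and an unadjusted p below 0.05 was found for 2 interneuron markers and 1 astrocyte marker.

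The remaining MBT genes, the L3MBTL family, encode readers of methylated histone lysines. L3mbtl2, a subunit of a variant PRC1, was at 35.1, 35.8 and 38.0 CPM in WT and 32.7, 41.7 and 34.2 CPM in cKO. The WT values lay inside the cKO range (log2 fold change -0.01, SE 0.13). L3mbtl1, whose protein can compact nucleosomes, was at 16.8, 20.3 and 19.2 CPM in WT and 20.7, 21.9 and 24.8 CPM in cKO. The lowest cKO library was just above the highest WT library, with a log2 fold change of 0.26 (SE 0.15, edgeR adjusted p = 0.532). L3mbtl3 was the low member, with a highest value of 11.1 CPM over the 6 libraries and a log2 fold change of 0.00 (SE 0.26). By level per kilobase of exon, L3mbtl2 made up 51.6% of the family, L3mbtl1 41.6% and L3mbtl3 6.79%. L3mbtl2 led in every library but cKO replicate 3, where it made up 46.6% and L3mbtl1 47.9%. The 5 MBT genes summed to 104 ± 2.48 CPM in WT and 115 ± 6.91 CPM in cKO (SD, n = 3 each), and without Sfmbt2 the means were 101 and 106 CPM.

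**Figure D2:**
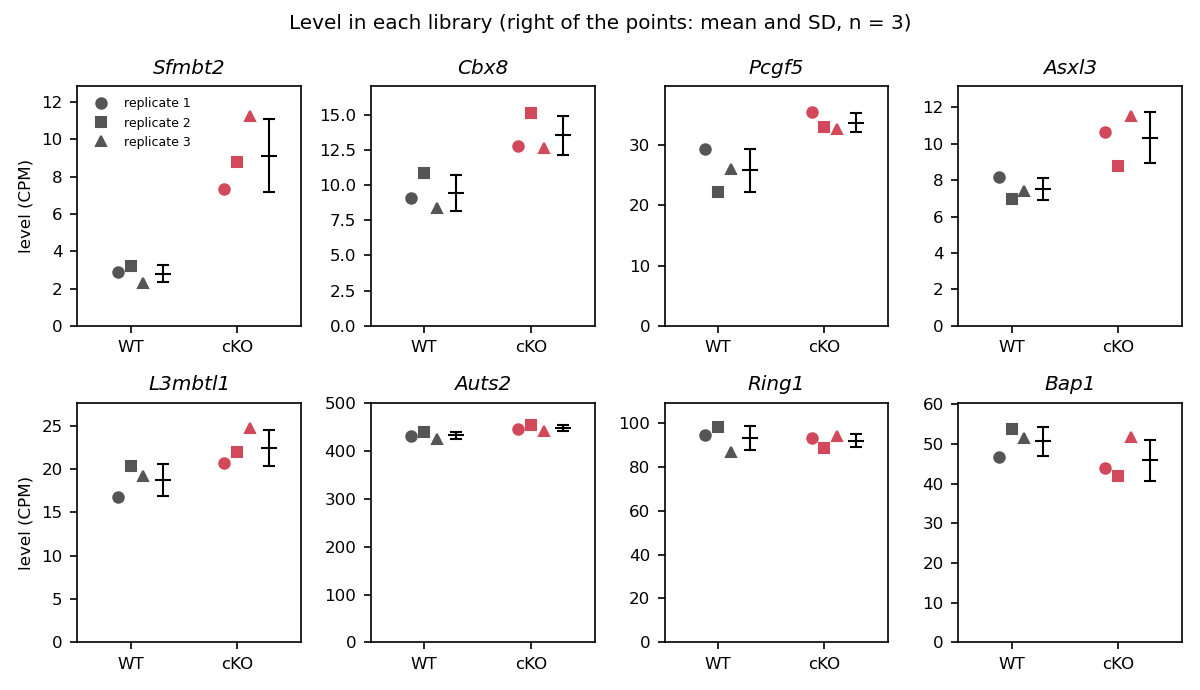
Level in CPM, on a linear axis, in each of the 3 WT and 3 cKO libraries, with mean and SD beside the points. The genes drawn are Sfmbt2, Cbx8, Pcgf5, Asxl3, L3mbtl1, Auts2, Ring1 and Bap1. The cKO points of Sfmbt2 lie between 7.34 and 11.2 CPM, all above the WT points between 2.31 and 3.20 CPM, while those of Ring1 and Bap1 overlap between genotypes.

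In canonical PRC1 the catalytic pair was unequal. Ring1 was at 94.4, 97.9 and 86.9 CPM in WT and 93.2, 88.5 and 93.9 CPM in cKO. Rnf2, which encodes the other RING enzyme, was at 6.04, 7.94 and 7.28 CPM in WT and 7.48, 7.26 and 6.16 CPM in cKO. Both genes overlapped between genotypes, with log2 fold changes of -0.02 (95% interval -0.20 to 0.16) and -0.03 (95% interval -0.53 to 0.47). Per kilobase of exon, Ring1 was at 28.5 CPM, higher than 94.8% of tested genes, and Rnf2 at 1.70 CPM. Ring1 made up 94.4% of the pair, and between 93.8% and 95.2% in each library.

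Pcgf2 and Bmi1 encode the PCGF partners of canonical PRC1. Pcgf2 made up 80.6% of this pair per kilobase of exon and Bmi1, known for its part in stem cell renewal, 19.4%. Pcgf2 was at 63.0, 66.0 and 53.3 CPM in WT and 56.7, 49.3 and 54.0 CPM in cKO, which overlap. Its log2 fold change was -0.19 (SE 0.11) and that of Bmi1 -0.05 (SE 0.17).

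Of the CBX genes, whose proteins read H3K27me3, Cbx7 and Cbx6 were the most abundant in every library. On the scale of CPM per kilobase of exon, Cbx7 made up 53.3% of the 4 genes, Cbx6 30.1%, Cbx8 8.76% and Cbx2 7.86%. This order depends on the length used: per kilobase of the whole gene, introns included, Cbx6 made up 63.9% and Cbx7 13.1%. Cbx7 and Cbx6 had log2 fold changes of -0.05 (SE 0.10) and -0.01 (SE 0.09).

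Cbx8 (chr11:119036303-119040913, minus strand) was the canonical gene with the largest difference. It was at 9.07, 10.9 and 8.38 CPM in WT and 12.8, 15.1 and 12.6 CPM in cKO. No WT library reached the lowest cKO library. The log2 fold change was 0.52 (SE 0.20), with an unadjusted p of 0.0148 and an edgeR adjusted p of 0.275, so it did not pass the test. Its neighbour and paralog Cbx2 lay between 9.08 and 15.3 CPM with overlapping genotypes (log2 fold change 0.15, SE 0.21).

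The PHC genes, which encode the polymerising subunits, did not have 1 dominant member. Phc2 made up, per kilobase of exon, 49.1%, Phc1 28.3% and Phc3 22.6%. Per kilobase of the whole gene Phc2 was last, with Phc1 at 42.0%, Phc3 at 35.6% and Phc2 at 22.4%. Their log2 fold changes were 0.12, -0.19 and 0.01, each with an SE between 0.09 and 0.13, and Scmh1, a PRC1 partner with MBT and SAM domains, stood at -0.11 (SE 0.11). The 12 canonical genes summed to 758 ± 2.55 CPM in WT and 748 ± 38.5 CPM in cKO (SD, n = 3 each). Within them 4 log2 fold changes were above 0 and 8 below.

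**Figure D3:**
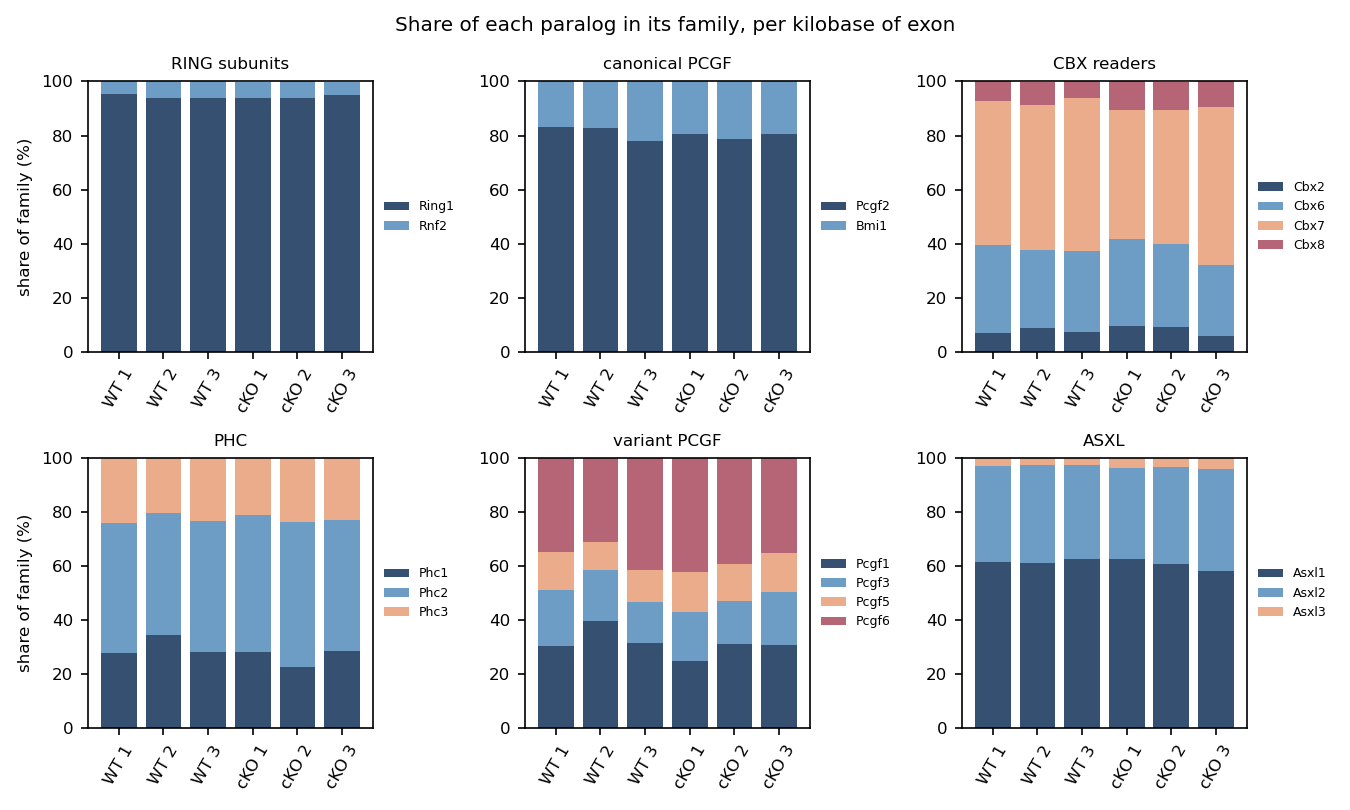
Share of each paralog in its family, in percent of the summed CPM per kilobase of exon, for each of the 6 libraries in the RING, canonical PCGF, CBX, PHC, variant PCGF and ASXL families. Ring1 holds between 93.8% and 95.2% of the RING pair in every library, and each family plotted has the same leading gene in all libraries except the variant PCGF genes, where Pcgf1 leads in WT replicate 2 and Pcgf6 in the others.

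In variant PRC1 the order of the PCGF genes also depended on the length used. Per kilobase of exon, Pcgf6, the subunit of the complex PRC1.6, made up 37.3% of the 4 variant PCGF genes, Pcgf1 of PRC1.1 31.3%, Pcgf3 18.2% and Pcgf5 13.1%. Per kilobase of the whole gene, Pcgf1 made up 49.1%, Pcgf6 34.3%, Pcgf3 12% and Pcgf5 4.67%. Pcgf5 (chr19:36348329-36460970, plus strand), whose complex ubiquitinates H2A widely, was at 29.3, 22.2 and 26.0 CPM in WT and 35.5, 33 and 32.6 CPM in cKO. The genotypes did not overlap. The log2 fold change was 0.39 (SE 0.13), with an unadjusted p of 0.00762 and an edgeR adjusted p of 0.213, which does not pass. Pcgf6 had a log2 fold change of 0.27 (SE 0.14), and its genotypes overlapped. Pcgf1 and Pcgf3 stood at -0.08 (SE 0.22) and 0.12 (SE 0.13).

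Auts2, a neurodevelopmental gene whose protein joins the PCGF3 and PCGF5 complexes and recruits activators, had the most counts of any member. It was at 432, 440 and 425 CPM in WT and 446, 454 and 443 CPM in cKO. Every cKO library lay above every WT library by a margin that is small beside the level, with a log2 fold change of 0.05 (SE 0.07, edgeR adjusted p = 0.836). It had the highest level of its class per kilobase of exon, 19.2 CPM, but ranked 6 of 10 per kilobase of its long gene. The 10 variant genes summed to 696 ± 4.51 CPM in WT and 727 ± 7.60 CPM in cKO (SD, n = 3 each), and Auts2 took 432 and 448 CPM of these means.

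RYBP and YAF2 are the alternative subunits that define variant PRC1. Rybp was at 6.20, 3.90 and 4.61 CPM in WT and 4.03, 2.78 and 4.16 CPM in cKO. The genotypes overlapped and the interval of its log2 fold change, -0.42 (SE 0.33), ran from -1.08 to 0.25, which includes a 2-fold fall. Yaf2 made up 82.4% of the pair per kilobase of exon (log2 fold change -0.10, SE 0.24). Kdm2b, whose protein brings PRC1.1 to unmethylated CG-rich DNA, was at 72.1 to 84.2 CPM in the 6 libraries (log2 fold change -0.03, SE 0.09). Bcor and Bcorl1, the X-linked scaffold genes of PRC1.1, had log2 fold changes of 0.14 (SE 0.14) and -0.01 (SE 0.12). In both genes the WT replicate high in Xist was the lowest of the 6 libraries, at 24.8 CPM for Bcor and 38.7 CPM for Bcorl1. The cKO replicate high in Xist, at 32.5 and 43.9 CPM, lay within the range of the others.

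Among the PR-DUB genes, Bap1, the catalytic subunit, was at 46.7, 53.8 and 51.5 CPM in WT and 43.9, 42.0 and 51.7 CPM in cKO. The highest cKO library lay within the WT range, and the log2 fold change was -0.14 (SE 0.11, edgeR adjusted p = 0.674). The ASXL genes encode its activating partners. Asxl1 made up 61.1% of the family per kilobase of exon, Asxl2 35.7% and Asxl3 3.18%.

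Asxl3 (chromosome 18, plus strand) had the lowest level per kilobase of exon of all members over the 6 libraries, 0.574 CPM. It was at 8.16, 6.97 and 7.40 CPM in WT and 10.6, 8.80 and 11.5 CPM in cKO. The genotypes did not overlap, with a log2 fold change of 0.46 (SE 0.22), an unadjusted p of 0.0455 and an edgeR adjusted p of 0.406. Asxl1 and Asxl2 had log2 fold changes of 0.00 and 0.04 (SE 0.09 each).

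MBD5 and MBD6 are the proteins that bind PR-DUB through its ASXL subunit. Mbd6, at 125, 140 and 118 CPM in WT and 122, 135 and 125 CPM in cKO, made up 84.9% of the pair per kilobase of exon. It was with Ring1 the highest member on that scale, at 28.6 CPM. Mbd5 ranged from 94.9 to 107 CPM (log2 fold change 0.02, SE 0.09), and Mbd6 had a log2 fold change of -0.01 (SE 0.09). The genotypes overlapped in both, and the 6 PR-DUB genes summed to 468 ± 15.7 CPM in WT and 470 ± 7.72 CPM in cKO (SD, n = 3 each).

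**Figure D4:**
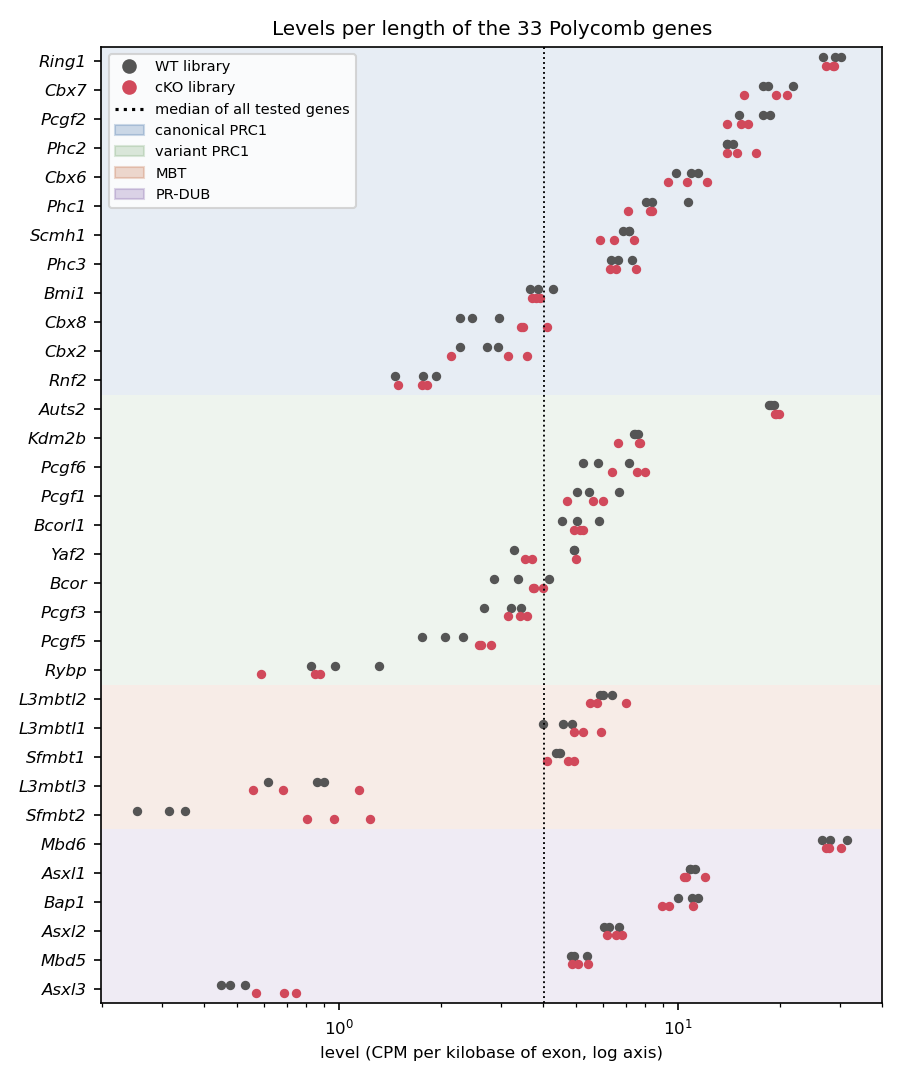
Level of each member in CPM per kilobase of exon, on a log axis, in every library, ordered within each complex, with the median of all tested genes (4.01 CPM per kilobase) as a dotted line. Ring1 and Mbd6 stand near 28.5 CPM, and Sfmbt2, Asxl3, L3mbtl3 and Rybp near or below 1 CPM.

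Nuclear RNA holds introns, so a level per kilobase of exon depends on how much intron was counted. Per kilobase of the whole gene, 15 of the 33 genes kept their rank within their class, and 7 of the 8 highest and lowest genes of the 4 classes stayed so, Auts2 being the exception. The leading gene of a family changed with the length used in the CBX, PHC and variant PCGF families and in none of the other paralog families. Levels of Asxl1, Asxl2, Cbx6, Cbx7, Kdm2b, L3mbtl2, Mbd5, Pcgf5, Rnf2 and Sfmbt1 could hold reads of genes that overlap their exons, since the use of strand is not stated. For Cbx6 and Kdm2b an overlapping gene lies on the same strand, so strand would not separate its reads.

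Other genes of these complexes were taken from a list of partners, of which 41 matched an entry and 37 were tested. Neither edgeR nor the other tools called any of them. By edgeR, 5 of the 37 had an unadjusted p below 0.05, as did 11.9% of all tested genes. Their median log2 fold change was 0.02, with 21 values above 0 and 16 below. The interval lay within 2-fold for 35 of the 37, and for 81% of all tested genes. The smallest p was that of Csnk2a1, a casein kinase subunit of the PCGF3 and PCGF5 complexes, at 21, 20.3 and 19.1 CPM in WT and 27.2, 27.5 and 24.6 CPM in cKO. The genotypes did not overlap (log2 fold change 0.39, SE 0.14, edgeR adjusted p = 0.230). Usp3, an H2A deubiquitinase outside PR-DUB, followed with 0.22 (SE 0.09, edgeR adjusted p = 0.328). By group, the median log2 fold change was -0.04 for 12 other PRC1.1 and PRC1.6 genes, 0.06 for 6 of PRC1.3 and PRC1.5, 0.05 for 3 MBT and SAM-domain genes, 0.09 for 5 PR-DUB partners, 0.06 for 9 H2A deubiquitinases and readers, and 0.11 for 2 DNA-binding factors.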

How the data were processed

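Nuclear RNA was sequenced in 6 libraries, 3 per genotype, from sorted and fixed nuclei. The authors deposited 1 table of raw counts per gene, made with Subread against mm10 per the submitters' processing notes. Not given in the sources used here: the Subread version, the annotation, whether introns were counted, and how strand and reads that map to several places were handled. Entries are NCBI gene identifiers. Of 24594, 24570 matched RefSeq genes of GRCm38.p6, 24 did not, and 3920 had no count. Genes kept by filterByExpr (13115, holding 99.7% to 99.8% of each library) were tested for genotype with edgeR 4.0.16 in R 4.3.3 (TMM factors 0.982 to 1.02, robust quasi-likelihood, two-sided). Adjusted p-values are Benjamini-Hochberg values over all tested genes, called below 0.05, and log2 fold changes are cKO over WT. CPM are counts per 1e+06, from total counts and TMM factors, and lengths are merged GENCODE M21 exons. DESeq2 1.42.0 and limma-voom (limma 3.58.1), other scalings and filters, a replicate block, replicates 2 and 3 alone, no robust fit and leaving out each library were the alternatives. The code was tested on simulated data. The members, the partner and marker lists and the tests were chosen with earlier results of these data known. Library values are given for the highest and lowest member of each class per kilobase, called members, those with an unadjusted p below 0.05 or separated genotypes, and catalytic subunits. Those of Pcgf2, Sfmbt1, Bcor and Bcorl1 were added afterwards.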

Additional observations from a re-analysis of the deposited data

How the results depend on the processing

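The number of genes called over the whole table, 76, moved with the processing: DESeq2 gave 116, limma-voom 42, no filter on low counts 277, no robust fit 49, replicates 2 and 3 alone 43, and leaving out 1 library between 13 and 249. Among the members, 1 was called in the fits run, except that DESeq2 called 0 and that leaving out 1 library gave 0 to 1. The count with an unadjusted p below 0.05 was 4, and leaving out 1 library gave 2 to 4. This count was 5 with library size alone and 3 with DESeq2, with a replicate block and with replicates 2 and 3 alone. The count of members whose genotypes did not overlap was 6, became 11 with replicates 2 and 3 alone, where fewer libraries separate more easily, and ran from 6 to 10 without 1 library. The log2 fold change of Ezh1 ran from -0.58 to -0.47 without 1 library and was not called in 2 of these fits. Per kilobase of gene span, 15 of 33 members kept their rank in their class. Sfmbt2 without WT replicate 3 is given above. Among the 12 members of the naming rule, the log2 fold changes of Ring1, Rnf2, L3mbtl2 and Mbd6, all between -0.18 and 0.06, changed sign between fits, and those of the other 8 did not. Beyond the high Xist of both replicates 1, the replicate numbers showed little pairing. Deviations from the genotype mean had correlations of 0.15, 0.01 and -0.04 for same-numbered libraries, and 0.06, -0.02 and -0.07 on autosomes. For differently numbered libraries they ran from -0.10 to 0.11. A replicate block gave 90 called genes and Sfmbt2 as the 1 member, at 1.70. Genes under 10 CPM, such as Rybp and Sfmbt2, carry the widest intervals.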

Other observations

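The genes beside Sfmbt2 were looked at after its values were seen. The 3 nearest tested genes on each side were Atp5c1, Kin and Itih5 before it and Prkcq, Pfkfb3 and Rbm17 after it, within 990 kilobases. Atp5c1, a mitochondrial ATP synthase subunit gene, had a log2 fold change of -0.15 (SE 0.14), Kin, a DNA-binding protein gene, -0.01 (SE 0.18), and Itih5, of a family of extracellular matrix proteins, -0.09 (SE 0.34). Prkcq, a protein kinase C gene, was the only one near 2 CPM, at 1.81, 1.95 and 1.09 CPM in WT and 1.29, 1.70 and 3.69 CPM in cKO, with a log2 fold change of 0.47 (SE 0.49). Its highest library was cKO replicate 3. Pfkfb3, a regulator of glycolysis, stood at -0.05 (SE 0.23) and Rbm17, a splicing factor gene, at 0.20 (SE 0.12). The genotypes overlapped in all 6 genes, and edgeR called none of them, with no unadjusted p below 0.05.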
